A study of Mus musculus with 8 samples.

Results

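Titin, the Z-disc and M-band genes and their close partners were read in single myocardial cells of the mouse heart tube. The 9 genes were Ttn, Actn2, Ldb3, Csrp3, Tcap, Nebl, Myom1, Mybpc3 and Des, and every probe whose gene name on the array equalled one of these symbols was taken, which gave 15 of 55681 probes. Each array carried the amplified cDNA of a single cell, and 8 arrays were available, 4 from wild-type (WT) and 4 from Sox17 knockout (KO) embryos. The comparison asks whether removal of Sox17, a transcription factor of endothelial and endocardial precursors, from the mesoderm is accompanied by a change in the transcripts of the neighbouring heart muscle.

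WT cells had the genotype Mesp1+/+ Sox17flox/flox and KO cells the genotype Mesp1Cre/+ Sox17flox/flox. Both groups were therefore homozygous for the floxed Sox17 allele, and only the KO group carried Cre from the Mesp1 locus, which is active in early mesoderm and thus in all lineages of the heart. Cells came from embryos at embryonic day 8.5 with 9 somites, each embryo genotyped from its tail, and were picked by capillary from a trypsin-dissociated heart tube. According to the methods, the cell type of each cDNA was assigned by PCR of marker genes. The study names Actn2 as a cardiomyocyte marker in its PCR on cDNA of single cardiac progenitor cells. Whether Actn2 or another of the 9 genes served to assign the present cells was not known here. Detection of Actn2 in a cell is therefore not read as a finding. The labels named no embryo or litter for a cell, so each genotype was treated as 1 sample of cells, no test was made, and each SD below describes how far single cells lay apart. Values of single cells are listed in the order of cells 1 to 4 of a genotype.

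The sarcomere is the contractile unit of striated muscle. At its borders, the Z-discs, alpha-actinin crosslinks the actin filaments of neighbouring sarcomeres and anchors the amino terminus of titin, a giant elastic protein that runs to the M-band in the middle, where myomesin ties the thick filaments together. In the heart tube these structures are assembled in the days around the first beats, and desmin filaments then link the Z-discs to each other and to the cell membrane.

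The labels, depth and cell identity were examined first. Between 17.1% and 26.0% of all probes were well above background in a cell, and 8, 10, 10 and 10 of the 15 sarcomere probes were so in the WT cells, compared with 8, 7, 5 and 10 in the KO cells. KO cell 3, with the fewest of these probes, also had the lowest share of all probes, and WT cell 3 had the highest. The myocardial markers, 10 in number, were found in each of the 8 cells at a summed signal of 625086 to 1085940 in WT and 715932 to 1069340 in KO cells. Of 13 endothelial markers, 3 to 4 were detected per WT cell and 2 to 4 per KO cell, at summed signals of 571 to 738 and 537 to 759. Of these, Kdr and Plvap were found in every cell and Pecam1 in 6. Dll4 was detected in KO cells 3 and 4, Etv2 in WT cell 1 and Tie1 in WT cell 2. The remaining Cdh5, Tek, Emcn, Nfatc1, Npr3, Tal1 and Flt1 were detected in 0 cells. Acta2, Tagln, Cnn1 and Smtn of the smooth muscle list were detected in every cell, at 94963 to 321976 in WT and 61023 to 264819 in KO cells, and Myh11 and Myocd in none. Skeletal muscle markers were detected in 0 of 8 cells. Erythroid, endoderm and proepicardial lists each had 0 to 1 detected marker per cell. These were Hba-a1 in KO cells 1, 2 and 3, Epor in WT cell 4 and Ttr in WT cells 1 and 4. Of the proepicardial list, Wt1 was detected in WT cells 2 and 3, Aldh1a2 in WT cell 1 and Tcf21 in KO cell 1. The summed proepicardial signal was 484 and 478 in WT cells 2 and 3 and 11.2 to 27.4 in the other cells. The 2 Sox17 probes were detected in 0 of 8 cells, WT cells included, so that the deletion could not be checked. The WT arrays shared 1 slide and the KO arrays shared the other, and the effects of slide and of genotype cannot be told apart in any comparison below.

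The probes are short windows of 60 bases on long transcripts, and for Ttn, Ldb3 and Nebl the reading depended on the window. The sequences of these probes, as the array files give them, are shown for that reason. They are written 5′ to 3′ in the sense of the transcript, with runs of at least 4 A in capitals, and each name gives the position of the probe on the transcript it was designed on, which for Ttn at 2094 is not that of the other Ttn probes. The files give genome positions in the mm9 build, and no exon or UTR annotation was used. The 4 Ttn probes lay on the minus strand of chromosome 2, at chr2:76802542-76802601, chr2:76655847-76655906, chr2:76551742-76551801 and chr2:76542077-76542136 in the order listed, which is the order along the gene from 5′ to 3′. Of the last, only the first 30 bases are printed, as also for the Ldb3 probes and the second Nebl probe.
Ttn, position 2094: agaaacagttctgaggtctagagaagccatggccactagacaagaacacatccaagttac
Ttn, position 33226: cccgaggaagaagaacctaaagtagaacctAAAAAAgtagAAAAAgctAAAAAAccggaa
Ttn, position 93881: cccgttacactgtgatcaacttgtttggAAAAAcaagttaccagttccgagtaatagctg
Ttn, position 101578: tgtagtccttttcatgccagtatatgttca
Ldb3, position 1313: aactcccacaagtggagtctctgtacaccc
Ldb3, position 4643: gcatagtgttaagattaaggctgaatgtcg
Nebl, position 1702: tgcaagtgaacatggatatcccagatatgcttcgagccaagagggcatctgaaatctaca
Nebl, position 2920: cttgaacacacacctacaaagataaactgc

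Titin was read strongly by its most 3′ probe. At position 101578 the scaled signal was 251, 7681, 20855 and 6563 in the WT cells and 26106, 13712, 6553 and 4381 in the KO cells. Every cell was well above background, WT cell 1 was the lowest by far, and the other WT cells lay within the range of the KO cells. On the log2 scale the WT mean was 11.98 ± 2.77 and the KO mean 13.30 ± 1.14 (SD between cells, n = 4 each), a KO minus WT difference of 1.32 that was smaller than the SD of the WT cells. It was 0.01 without WT cell 1, so this cell alone decided its size.

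The other Ttn probes gave a different picture in the same cells. At positions 2094 and 93881 none of the 8 cells was well above background, with scaled signals of 1.30 to 3.17 and 1.31 to 3.24. The probe at 93881 lay 7697 bases upstream of the one at 101578 on the transcript, and according to the files all 4 probes match the same 2 RefSeq titin transcripts. At position 33226, which lies 68352 bases upstream of the 3′ probe, the signal was 3.17, 355, 1.27 and 1.40 in WT cells and 65.2, 465, 4.31 and 2.06 in KO cells. It was well above background in WT cell 2 and KO cells 1 and 2, and near the bottom of the scale in the others. The sequence shown above for this probe is 55.0% A with a longest run of 6, where the median probe of the array is 28.3% A and 0.0952% of probes have more. Whether this composition has a part in the signal of those 3 cells was not tested. The cDNA was made with an oligo-dT primer according to the methods.

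**Figure D1:**
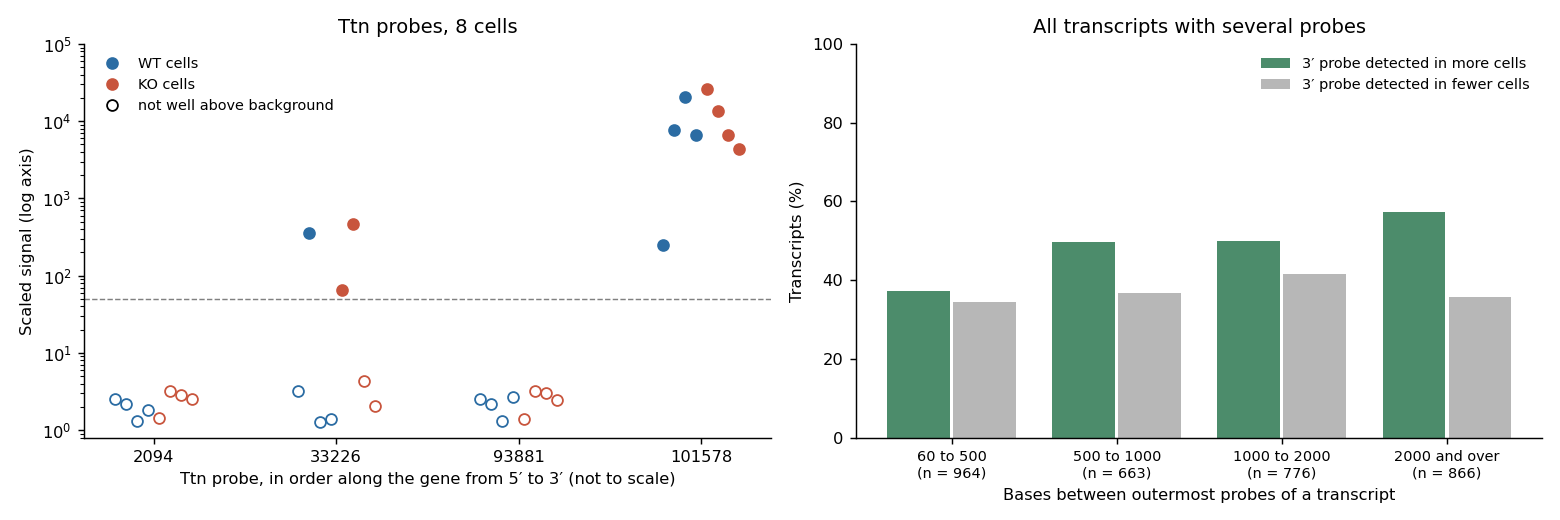
Left, scaled signal (log axis) of the 4 Ttn probes in their order along the gene, named by position and not drawn to scale, with a point per cell, WT blue and KO red, slightly offset from each other, open where the signal was not well above background, and the floor of 50 as a dashed line. The probe at 101578 is filled in 8 of 8 cells, that at 33226 in 3, and the remaining probes in 0. Right, over all transcripts with several probes, the percentage whose most 3′ probe was detected in more (green) or fewer (grey) cells than the most 5′ probe, by the number of bases between them. The gap between the bars is widest at 2000 bases and over, 57.4% against 35.7%.

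The same comparison was made over the whole array to place the Ttn probes. Of 3269 transcripts that had at least 2 probes and a detected signal in any cell, the most 3′ probe was detected in more cells than the most 5′ probe in 48.1%, in fewer cells in 36.9%, and in as many in 15.0%. For 964 transcripts with 60 to 500 bases between these probes the shares were 37.1% and 34.4%, and for 866 with 2000 bases and over they were 57.4% and 35.7%. Of the 3 Ttn probes designed on 1 transcript, the most 3′, at 101578, was detected in 8 cells and the most 5′, at 33226, in 3. For these outermost probes this is the more common direction among widely spaced probes. The probe between them, at 93881, was detected in 0 cells, fewer than the more 5′ probe at 33226, which is the other direction.

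Alpha-actinin 2, the actin crosslinker of the cardiac Z-disc, is encoded by Actn2. Its probe at position 2515, for which the files give no genome position, read 11.4, 12994, 6129 and 2196 in the WT cells and 15799, 14966, 2805 and 5540 in the KO cells. All 8 cells were well above background, but WT cell 1 lay under the floor of 50 to which lower signals were raised before averaging. The other WT cells overlapped the KO cells. WT cells averaged 10.75 ± 3.56 and KO cells 12.93 ± 1.20, a difference of 2.18 or 4.53-fold, which lay within the rule of 5-fold used to count probes. Without WT cell 1 the difference was 0.50, and in 4 of the 8 settings that left out a cell it passed 5-fold, up to 3.13 without WT cell 2. A second Actn2 probe at position 1240 (chr13:12400548-12400607), designed on a cDNA clone of the adult corpus striatum, was well above background in 1 cell at 7.66, under the floor.

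WT cell 1 was thus the lowest cell for both Ttn and Actn2. Over the 8 cells the log2 signals of these probes had a Pearson correlation of 0.93, and over the 7 cells without WT cell 1 it was 0.57. The points share an array, a slide and an amplification, and the value is a description.

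Ldb3 encodes a PDZ-LIM protein, also called ZASP or Cypher, that binds alpha-actinin at the Z-disc and is spliced into long and short forms. The probe at position 4643 (chr14:35340222-35340281, minus strand) read 1756, 2151, 3275 and 1504 in the WT cells and 1.38, 3.17, 2.96 and 38.1 in the KO cells. All WT cells were high and close together, all KO cells were under the floor, and KO cell 4 was the only KO cell well above background. WT cells averaged 11.02 ± 0.49 and KO cells 5.64 ± 0, the latter being the floor itself, and the difference was -5.38 on the log2 scale or 41.5-fold lower. The floor sets this size in part, and the difference was -8.78 without a floor. Leaving out any cell kept it between -5.51 and -5.06. The study picked Ldb3 as lower in mutant cardiomyocytes on these arrays, so this result is not independent evidence of that direction.

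The other Ldb3 probe, at position 1313 (chr14:35374689-35374748), lay 34467 bases upstream on the genome and was designed on other transcripts. The files list 3 and 4 RefSeq transcripts for these probes, with 0 shared. Its signal was 4.16, 1443, 2685 and 787 in the WT cells and 2547, 198, 3.00 and 13.9 in the KO cells. It was not above background in WT cell 1 and KO cell 3, KO cell 1 lay within the range of WT cells 2 to 4, and the groups overlapped. WT cells averaged 9.29 ± 2.53 and KO cells 7.56 ± 2.67, a difference of -1.73, smaller than either SD. It lay between -2.94 (WT cell 1 left out) and -1.01 (WT cell 3 left out). KO cells 1 and 2 were detected by this probe and not by the one at 4643, and WT cell 1 was detected by the one at 4643 and not by this probe. Taken by gene, Ldb3 was detected in 7 of 8 cells, and the separation of the groups held for one of its probes.

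Csrp3 encodes muscle LIM protein, which is found at the Z-disc and in the nucleus of striated muscle cells. Its probe at position 564, without a genome position in the files, read 3563, 6014, 10288 and 2460 in WT cells and 9547, 14399, 5827 and 21154 in KO cells. KO cells 2 and 4 lay above every WT cell, and KO cells 1 and 3 lay within the WT range. The means were 12.24 ± 0.90 and 13.48 ± 0.80, a difference of 1.24 that exceeded the SD of each group and lay between 0.91 and 1.61 when a cell was left out. It did not reach 5-fold.

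Tcap encodes telethonin, a small protein that caps the amino terminus of titin at the Z-disc. Its probe at position 807 (chr11:98246127-98246186, plus strand) read 7304, 10.5, 3828 and 5.97 in the WT cells and 4.47, 5.44, 2.68 and 508 in the KO cells. WT cells 1 and 3 and KO cell 4 were above the floor and the other 5 cells were not. The difference of -2.53 between the means of 9.01 ± 3.90 and 6.48 ± 1.67 amounts to 5.76-fold but is smaller than the SD of the WT cells. Tcap was well above background in 3 of 4 WT cells and 1 of 4 KO cells, and since neither genotype was complete it did not enter the counts by the 5-fold rule. The difference lay between -3.67 and -1.25 when a cell was left out. WT cell 1, in which Actn2 was lowest, had the highest Tcap signal.

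Nebulette, encoded by Nebl, is a cardiac relative of nebulin that binds actin near the Z-disc. The probe at position 1702 (chr2:17314550-17314609, minus strand) read 2.28, 1.94, 1277 and 2186 in the WT cells and 1.26, 2.99, 2.71 and 1625 in the KO cells. WT cells 3 and 4 and KO cell 4 were high, and the other 5 were not above background. Neither genotype was complete, and the difference of -1.28 between means of 8.18 ± 2.94 and 6.90 ± 2.51 was smaller than either SD. The second probe, at position 2920 (chr2:17268361-17268420), was above background in 0 of 8 cells, including the 3 cells in which the first was high. The files list 4 and 1 RefSeq transcripts for the 2 probes and 0 in common.

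Of the M-band and thick filament genes, Myom1 encodes myomesin 1, the main crosslinker of myosin filaments at the M-band. Its probe at position 5255 (chr17:71475839-71475898, plus strand) read 70.4, 2484, 2909 and 4231 in the WT cells and 706, 8621, 3.45 and 2466 in the KO cells. WT cell 1 and KO cell 3 were low, KO cell 2 was the highest, and the groups overlapped. The means were 10.24 ± 2.76 and 9.86 ± 3.18, a difference of -0.38. Its sign was not stable, since it was 1.01 without KO cell 3 and -1.74 without WT cell 1.

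Mybpc3 encodes cardiac myosin-binding protein C, which binds myosin and titin in the A-band on either side of the M-band. Its probe at position 4041 (chr2:90976552-90976611, plus strand) read 15464, 25538, 22808 and 21631 in WT cells and 38660, 20153, 6746 and 29966 in KO cells. The WT cells lay within a narrow band, the KO cells lay on both sides of it, and every cell was well above background. The means were 14.36 ± 0.31 and 14.28 ± 1.11, so that the difference of -0.08 was far under the spread of the KO cells. Its sign turned without KO cell 3, at 0.43.

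Des encodes desmin, the intermediate filament protein of muscle. Its probe at position 1480, printed in 10 spots per array and without a genome position in the files, read 1054, 1081, 127 and 1271 in the WT cells and 791, 3.64, 1129 and 490 in the KO cells. WT cell 3 was low among the WT cells and KO cell 2 was not above background, while the other 6 cells lay close together. The means were 9.36 ± 1.58 and 8.59 ± 2.02, a difference of -0.77 that became 0.23 without KO cell 2. On the 7 arrays where all 10 spots were detected, the SD of log2 signal between spots was 0.0536 to 0.119, many times smaller than the spread between cells. This SD covers the hybridisation and scanning of an array and leaves out the amplification of its cDNA.

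**Figure D2:**
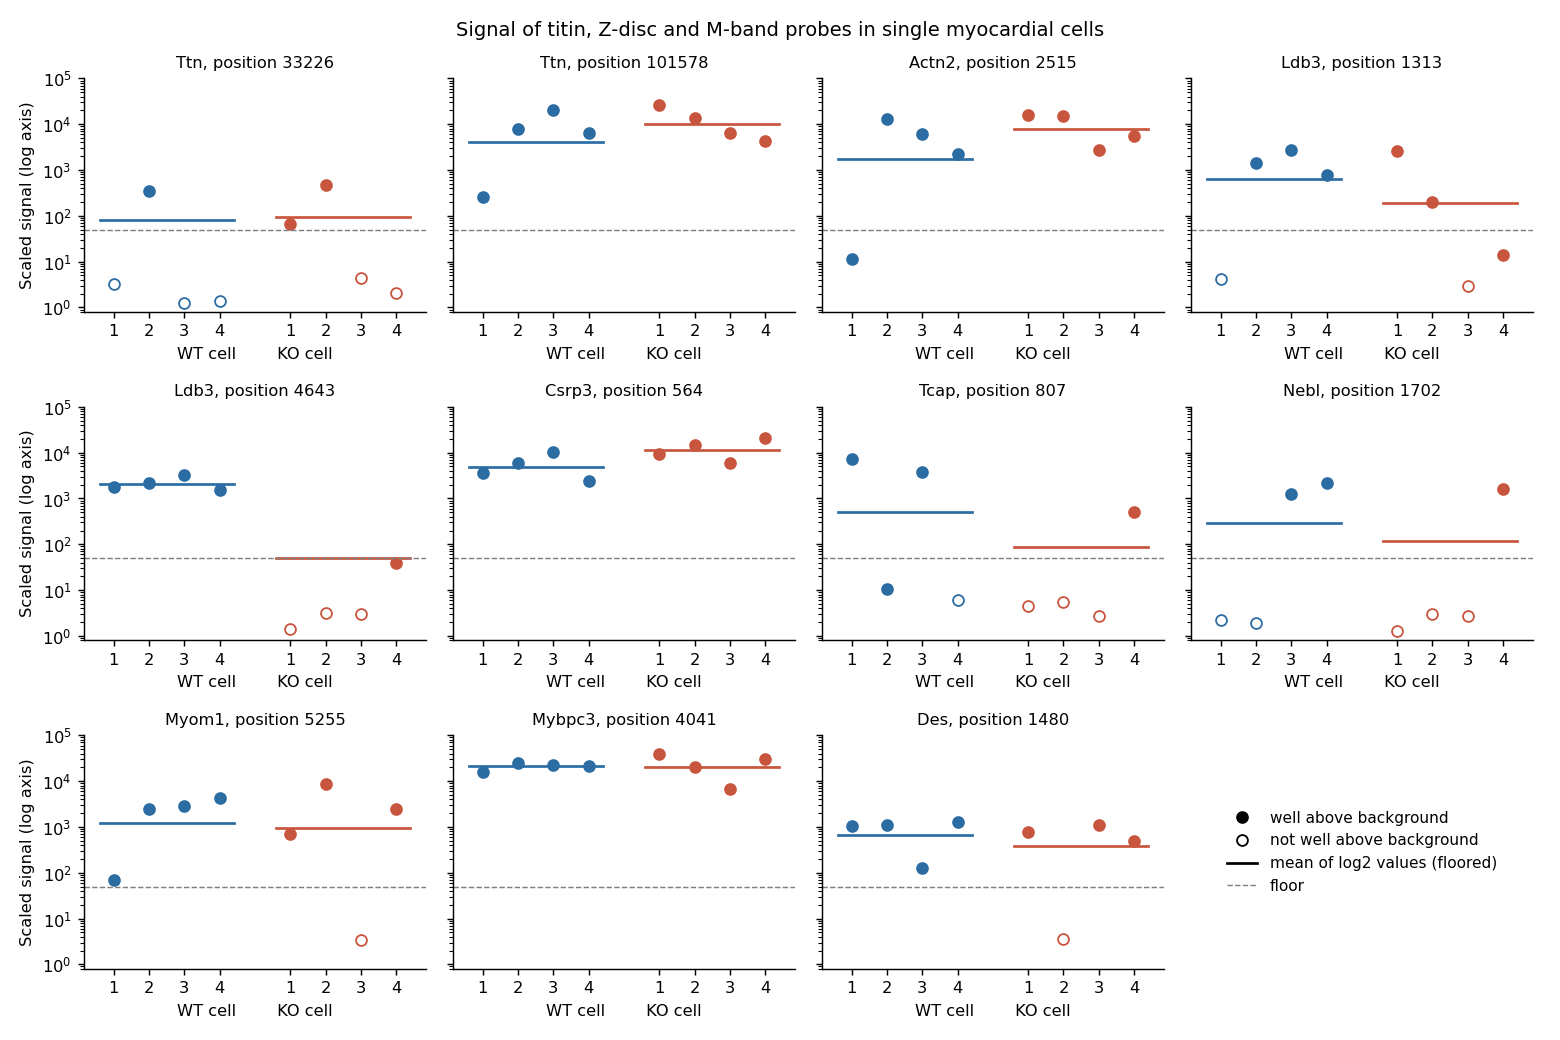
Scaled signal (log axis) of the 11 probes that were above the floor in at least 1 cell, with a panel per probe and a point per cell, WT cells 1 to 4 in blue and KO cells 1 to 4 in red. Open points were not well above background, short lines are the means of floored log2 values over 4 cells, and the dashed line is the floor of 50. WT and KO points are apart for Ldb3 at position 4643, where WT cells sit between 1504 and 3275 and KO cells between 1.38 and 38.1, and they overlap in the other panels.

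Taken over the 15 probes, 4 were well above background in all 8 cells, against 9.52% of all probes of the array, 8 in 1 to 7 cells and 3 in 0 cells, as was the case for 56.2% of all probes. The 4 read Ttn, Actn2, Csrp3 and Mybpc3. The cells were assigned as myocardial by marker PCR, in which Actn2 or others of the 9 genes may have served. The count of 4 is therefore not read as a finding against the share of the array. A probe was called present when all 4 cells of either genotype were well above background, and 7 of the 15 probes, of 7 genes, met this. Among them 1 was at least 5-fold lower in KO cells, Ldb3 at position 4643, and 0 were at least 5-fold higher. This Ldb3 probe was well above background in 4 WT cells and 1 KO cell. It was thus present through the WT cells alone, where it was high, and the filter favours a call in this direction. Over all 7467 present probes 6.88% were at least 5-fold lower and 1.75% at least 5-fold higher, 8.64% in all. A count of 1 in 7 probes is too small to set against these shares. Whatever the size, 4 of the 7 were lower, Ldb3 included, and 3 were higher, numbers also too small to set against the array. Of the lower probes, those of Myom1 and Des were well above background in 4 WT and 3 KO cells. They too were present through the WT cells alone, so the filter favours this direction for them as well. Of the 4 probes detected in all 8 cells, that of Mybpc3 was lower, at -0.08, and those of Ttn, Actn2 and Csrp3 were higher. In 1 of the 7, the same Ldb3 probe, all KO cells lay below all WT cells, compared with 2.26% of present probes. In 0 of the 7 they lay above, compared with 3.27%. The other 6 overlapped, where 5.53% of present probes did not.

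Where each gene was taken by its brightest probe, 6 of the 9 genes were lower and 3 were higher in KO cells. The brightest probe of Ldb3 is the one at position 1313, not the one at 4643 that was past 5-fold. The median difference of the 9 genes was -0.38. The median of the 7 present probes was -0.08, and that of all 7467 present probes was 0.02. The spread between cells was larger for some of these genes than for the array as a whole. The median SD over present probes was 0.74 in WT and 0.71 in KO cells, while those of the 7 present sarcomere probes ran from 0.31 for Mybpc3 to 3.56 for Actn2 in WT cells and from 0 for Ldb3 to 3.18 for Myom1 in KO cells. Under the settings that left out a cell, the median of the 9 genes ran from -0.86 without KO cell 4 to 0.43 without KO cell 3.

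**Figure D3:**
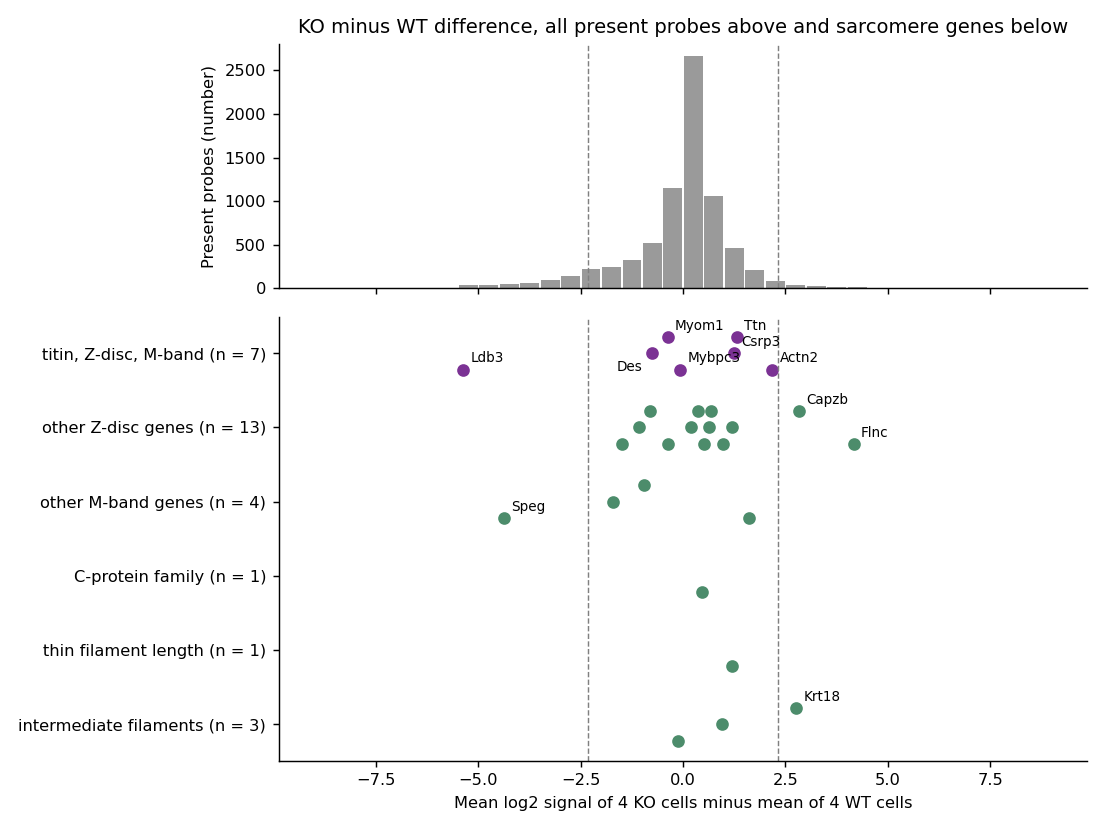
KO minus WT difference of mean log2 signal (horizontal axis), above as a histogram over the 7467 present probes in bins of equal width and below with a point per present gene, the 7 genes of titin, Z-disc and M-band in purple and 22 further genes of the same structures in green. Dashed lines mark 5-fold. Ldb3 at -5.38 is the only purple point outside the lines, and 4 green points lie outside them.

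The cells differed from each other in which of the genes were missing. With Ldb3 taken by its probe at 1313, between 5 and 9 of the 9 genes were above the floor in a cell, 9 in WT cell 3, 8 in WT cell 4 and KO cell 4, 7 in WT cell 2 and KO cell 1, 6 in WT cell 1 and KO cell 2, and 5 in KO cell 3. The mean log2 signal of the 9 genes relative to the 8 cells was -1.64, 0.28, 1.38 and 0.42 in the WT cells and 0.49, -0.11, -1.37 and 0.54 in the KO cells. The lowest cells, WT cell 1 and KO cell 3, belonged to different genotypes, and the groups overlapped (WT mean 0.11 ± 1.27, KO mean -0.11 ± 0.89). KO cell 3 also had the lowest and WT cell 3 the highest share of all probes above background, at 17.1% and 26.0%. KO cell 2, with a mean of -0.11, had a share of 17.2%, and WT cell 1, with the lowest mean, had 19.6%. The part of this share in the order of the cells was not tested. WT cell 1 was under the floor for Actn2, Ldb3 at position 1313 and Nebl, and had the highest signal of any cell for Tcap.

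Across the 8 cells most of the genes were only weakly related to each other. Of 36 pairs of genes 22 had a correlation above 0, with a median of 0.14. After Ttn with Actn2, the highest was Ttn with Ldb3, at position 1313, at 0.66, and the lowest were Actn2 with Tcap at -0.64 and Csrp3 with Des at -0.64. The correlation of Actn2 with Tcap was -0.11 without WT cell 1. Outside the 9 genes, the probes that most resembled their mean over 8 cells, among 2656 probes with a symbol and detected in every cell, were those of Atp2a2, the calcium pump of the sarcoplasmic reticulum, with a correlation of 0.88, Gm15796 with 0.88, and Banf1, a chromatin-binding factor, with 0.86. These are the highest of many values over few points and are given as a description.

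**Figure D4:**
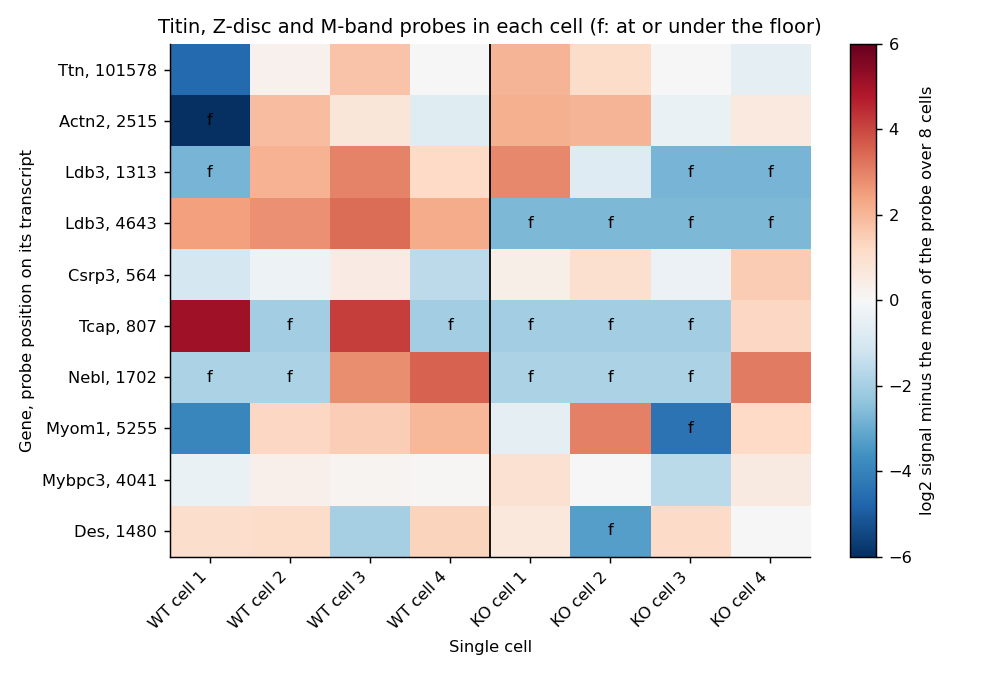
Log2 signal of 10 probes in each of the 8 cells, relative to the mean of that probe over the cells (red higher, blue lower). The letter f marks a signal at or under the floor of 50, and a vertical line divides WT from KO cells. Ldb3 at position 4643 is red in the 4 WT cells and at the floor in the 4 KO cells, WT cell 1 is blue for Ttn, Actn2 and Myom1, and KO cell 3 has a letter for both Ldb3 probes, Tcap, Nebl and Myom1.

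Further genes of the same structures were read from lists of 62 genes in all, of which 14 were detected in all 8 cells, 11 in none, and 22 were present. Among the 22, 1 was at least 5-fold lower in KO cells and 3 were at least 5-fold higher. Over all present probes, counted by probe and not by gene, the shares were 6.88% and 1.75%. Counts of 1 and 3 are too small to set against these shares. Among the 14 genes detected in all 8 cells, 0 were at least 5-fold lower and 1 was at least 5-fold higher. Whatever the size, 8 of the 22 were lower and 14 were higher, with a median of 0.49. The median of all present probes was 0.02, and 35.8% of them lay from 0 to 0.5 compared with 15.5% from -0.5 to 0. The bin from 0 to 0.5 can include probes at a difference of 0 with every cell at the floor. These bins therefore do not give the shares of lower and higher probes. The counts and the median of the 22 genes were not tested and are not read as a shift of these genes.

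The Z-disc list had 13 of 27 genes present, 0 at least 5-fold lower, 2 at least 5-fold higher, and a median of 0.51. Flnc, which encodes the muscle filamin that crosslinks actin at the Z-disc and the membrane, read 20.2, 306, 847 and 2004 in the WT cells and 6444, 28227, 3058 and 4879 in the KO cells at its probe on chr6:29411790-29411849. Each KO cell lay above each WT cell, the means were 8.65 ± 2.29 and 12.82 ± 1.38, and the difference of 4.17 or 18.0-fold lay between 3.19 and 4.92 when a cell was left out. WT cell 1, the lowest for Ttn and Actn2, was also the lowest for Flnc. Capzb, the beta subunit of the capping protein that holds the barbed ends of actin filaments at the Z-disc, read 2.48, 480, 27.3 and 339 in WT cells and 2295, 1517, 444 and 681 in KO cells at chr4:138843685-138843744. The groups overlapped at WT cell 2 and KO cell 3, and the difference was 2.83, from means of 7.15 ± 1.75 and 9.98 ± 1.08. This probe was well above background in 3 WT and 4 KO cells, so it was present through the KO cells alone, where it was higher. A second Capzb probe at chr4:138844779-138844838 was detected in 2 of 8 cells and was above the floor in KO cell 1, at 142.

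Other Z-disc genes detected in all 8 cells did not reach 5-fold. Synpo2l, an actin-binding relative of synaptopodin, differed by 0.35 and Pdlim1, a PDZ-LIM protein like Ldb3, by 1.19, with SDs in Pdlim1 of 1.41 and 2.62. Pdlim7, of the same family, differed by -0.81, and Myoz3, a calsarcin that binds alpha-actinin, by 0.18 at signals close to the floor. The small muscle protein Smpx, chosen after its values were seen because its groups did not overlap, had narrow groups of 11.19 ± 0.12 in WT and 10.82 ± 0.14 in KO cells, a difference of -0.37.

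The M-band list had 4 of 16 genes present, 1 at least 5-fold lower and 0 at least 5-fold higher, with a median of -1.34. Fhl2 and Smyd1, detected in all 8 cells, went opposite ways, at -1.72 and 1.61. Unc45b, at -0.96, was well above background in 4 WT and 3 KO cells, and so was present through the WT cells alone. Its difference was -0.01 without WT cell 3. The median of these 4 genes is not read as a decrease of the list. The gene past the rule was Speg, which encodes a titin-like kinase of striated muscle and which the study also picked on these arrays, so its direction is not independent evidence either. Its probe at chr1:75401022-75401081 read 2103, 150.0, 942 and 3991 in WT cells and 19.0, 11.0, 12.9 and 4.18 in KO cells, 1 KO cell being well above background. The probe was thus present through the WT cells alone, where it was high. The WT cells were all above the floor and the KO cells all under it, and the difference of -4.38, from 10.03 ± 2.05 to the floor, lay between -5.35 and -3.71 when a cell was left out.

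In the smaller lists, 1 of 4 genes of the myosin-binding protein C family was present, Mybpc1 with a difference of 0.47, and 1 of 7 genes of thin filament length and assembly, Nrap with 1.20. Both are named as the only present gene of their list, after their values were seen. Of 8 intermediate filament and linker genes 3 were present with a median of 0.96. Of these, Krt18, a keratin of simple epithelia that is also made in the early heart, was at least 5-fold higher in KO cells, with a difference of 2.76 from means of 7.48 ± 3.67 and 10.24 ± 3.39. Its signal was 13.1, 23.1, 8137 and 39.6 in WT cells and 1.38, 3152, 1075 and 12489 in KO cells, so that WT cell 3 lay among the high KO cells and KO cell 1 among the low WT cells. Without KO cell 4 the difference was 1.65, and without WT cell 3 it was 4.52.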

How the data were processed

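The arrays were 1-colour Agilent arrays (Cy3) of 60-base probes, hybridised with RNA transcribed from amplified single-cell cDNA, 1 cell per array. The deposited files were the output of Feature Extraction 12.0.2.2, per the file headers, with positions in mm9. The intensity values used were the background-corrected processed signals as deposited, on a linear scale, with the software's 0 or 1 flags for signal well above background and for outlier spots. According to the authors, values under 50 were raised to 50 and each array was scaled by its 50th percentile.

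Here control spots and outlier spots (146 to 220 per array) were left out and spots of a probe were averaged as log2 values. Arrays were shifted to a common 50th percentile over the 5301 probes well above background on all arrays (shifts of -0.76 to 0.68), and the floor of 50 was applied afterwards to means, SDs and differences. Signals printed per cell are scaled and not floored. A probe was present when well above background in all 4 cells of a genotype. Probes were counted at a log2 difference of 2.32, which is the 5-fold rule of the study. The number of arrays limits the precision. Signals of different probes were not compared as levels, except that the probe of highest mean signal stood for a gene in medians, cell means and correlations.

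The 9 genes, the lists of other genes, the rules and the alternatives were chosen with earlier results of these data known. All probes of the 9 genes are named. Of the other lists, the genes named are those past 5-fold and the next 4 detected in all 8 cells in list order, and 3 genes were named by correlation with the mean of the 9 genes. Smpx, Mybpc1, Nrap, Fhl2, Smyd1 and Unc45b were added after their values were seen. The alternatives were other scaling, normalization and background correction (limma 3.58.1 in R 4.3.3), floor, filters, detection, probe choice and leaving out each cell. Scripts ran in Python 3.11.15 with numpy 2.4.6, pandas 2.3.3 and matplotlib 3.10.9. The comparison was tried on simulated data built from probes detected in all 8 cells, all given the same spread and scored only well above the floor. This trial therefore does not cover probes with cells at the floor or with a wider spread. Replicate numbers name cells only and pair nothing. The result of 1 further marker list is not reported here.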

Additional observations from a re-analysis of the deposited data

Results flagged for a closer look

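In 21 groups of 4 cells in which a probe of the 9 genes was measured, the highest or lowest cell was compared with the next by Dixon's criterion on floored log2 signal. It stood apart in 6 groups. Chance gives about 1 in 20 groups where values are not tied. That rate does not hold for the 3 of the 6 groups whose other cells were all at the floor. Nor does it hold for Ttn at position 33226 in the KO group, where KO cells 3 and 4 were both at the floor. Ttn at position 33226 stood high in WT cell 2 at 355, with the other WT cells at the floor of 50, and high in KO cell 2 at 465, with the next KO cell at 65.2. Tcap stood high in KO cell 4 at 508 and Nebl at position 1702 stood high in the same cell at 1625, with the next KO cell at the floor in both. Myom1 stood low in WT cell 1 at 70.4, with the next WT cell at 2484. Des stood low in WT cell 3 at 127, with the next WT cell at 1054.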

How the results depend on the processing

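No paired analysis was possible because the replicate numbers only name cells and no result comes from a test. The probes of the 9 genes at least 5-fold lower in KO cells numbered 1. They numbered 0 among probes detected in all 8 cells, 2 with no filter, 2 with detection required in 3 of 4 cells, 2 with positive and significant signal as detection, and 1 to 2 with a cell left out (2 without WT cell 1 or WT cell 4). Those at least 5-fold higher numbered 0, but 1 with no floor and 0 to 1 with a cell left out (1 without WT cell 2, WT cell 3, KO cell 3 or KO cell 4). The other genes at least 5-fold lower numbered 1. They numbered 2 with no floor, 0 among probes detected in all 8 cells, 3 with no filter, 2 with detection required in 3 of 4 cells, 3 with positive and significant signal, 2 with the median of cells, 0 without Speg, and 1 to 4 with a cell left out (4 without WT cell 1, 3 without KO cell 1). The other genes at least 5-fold higher numbered 3, 1 among probes detected in all 8 cells, and 2 to 4 when a cell was left out. The median of the other genes was 0.49, 0 with no filter, 0.19 with scaling on the 50th percentile over all probes, 0.30 with the mean of all probes of a gene, and between 0.21 and 0.54 when a cell was left out. The median of the 9 genes uses no filter and ran from -1.34 with no floor to -0.08 with the most 3′ probe of each gene, and when a cell was left out from -0.86 to 0.43. Probes of the 9 genes detected in 0 cells numbered 3, and 1 with positive and significant signal. The difference of Ldb3 at position 4643 was -4.76 with normexp background correction and -8.78 with no floor. With a cell left out the sign changed for Myom1 in 3 of 8 settings and for Mybpc3 and Des in 1 each, Ttn fell to 0.01 and Actn2 to 0.50. The cause of these changes was not tested.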

Other observations

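Other genes of the same structures also had probes that read differently in the same cells. Speg, the titin-like kinase, had 3 probes. The one at position 9735 on the transcript (chr1:75428730-75428789) read 18.4, 10232, 10.5 and 3424 in the WT cells and 38.1, 8.18, 2.92 and 10.8 in the KO cells. WT cells 2 and 4 were high with it and WT cells 1 and 3 were under the floor, although WT cells 1 and 3 were above the floor with the probe at position 3276. The one at position 2510 was above the floor in WT cell 1, at 408, and in no other cell.

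Pdlim7, a PDZ-LIM protein of the Z-disc, likewise had 3 probes whose difference had opposite signs. At position 242 (chr13:55610290-55610349) it was -0.81 and at position 1637 (chr13:55599777-55599836) it was 1.92. The former was 0.38 without KO cell 1, which read 7.76, and 0.07 without WT cell 1, so that its sign rested on single cells, and the latter was 0.64 without KO cell 3, which read 3005. At position 2458, WT cell 2 was above background, at 1721, and the other 7 cells were not. Smpx was detected in 8 of 8 cells by its probe at position 638 and in 0 of 8 by its probe at position 8.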
